A study of Mus musculus with 6 samples.

Results

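The Zbtb genes encode transcription factors that pair a BTB domain, a module for dimerization and for contact with corepressor complexes, with zinc fingers that read DNA. H3K4me3 and H3K4me1 peaks around 39 such genes were examined in germinal center (GC) B cells, the B cells that proliferate and mutate their immunoglobulin genes during an immune response. Members were the protein-coding genes of the mouse GENCODE annotation whose symbol is Zbtb followed by a digit, leaving out Zbtb20 and Zbtb32, which gives 39 of 21864 protein-coding genes. The rule reads names and no measured values, though it was set with earlier results of these data known. One member, Zbtb8os, fits the naming rule although it encodes a cofactor of the tRNA ligase complex and no zinc finger protein.

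The profiles came from Mint-ChIP, a chromatin immunoprecipitation on pooled, barcoded samples of few cells, with 3 libraries for H3K4me3 and 3 for H3K4me1. All 6 were made from spleen cells of mice labelled WT, 8 days after the animals had received sheep red blood cells as antigen, from 50000 sorted cells per library, and the series holds no other genotype or treatment. The labels call the cells GC centrocytes, the fraction of the light zone, while the methods of the study speak of GC B cells. Nothing in the labels says whether libraries of a mark came from separate animals, so the spread between them may be technical.

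BTB zinc finger factors act largely as repressors, through corepressors such as NCOR and BCOR and through histone deacetylases, and several of them set the fate of lymphocytes. Bcl6, the factor that maintains the GC program, belongs to the same protein family under another symbol. H3K4me3 is the histone mark typical of active promoters and H3K4me1 is found largely at enhancers and on promoter flanks. Here a peak was called promoter-proximal when its nearest edge lay within 5 kb of a transcription start site (TSS) of the member, and outlying when it lay beyond that and within 50 kb.

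The DNA printed here shows the patterns described in the results. It comprises an interval between a divergent pair of genes that lay between H3K4me3 peaks, the promoter under the widest promoter-proximal H3K4me3 peak, and an outlying H3K4me1 site found in every library. The promoter is the 250 bases before the most upstream protein-coding TSS of Zbtb7b, and lies inside the annotated span of the gene. All are GRCm38 sequence given 5′ to 3′ on the strand named, and capitals mark matches, on either strand, to the GC box GGGCGG, the CCAAT box or the palindrome TTCNNNGAA. In the Zbtb7b promoter the CCAAT box is read from the other strand and overlaps a GC box.

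Zbtb25 to Zbtb1 interval, chr12:76369966-76370265, plus strand: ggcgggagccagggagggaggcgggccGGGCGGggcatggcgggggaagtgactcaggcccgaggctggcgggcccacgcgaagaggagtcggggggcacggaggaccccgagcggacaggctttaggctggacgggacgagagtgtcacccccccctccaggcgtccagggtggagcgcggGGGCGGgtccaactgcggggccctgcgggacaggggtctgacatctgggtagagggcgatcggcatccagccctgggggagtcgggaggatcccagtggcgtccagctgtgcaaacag

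Zbtb7b promoter, chr3:89393363-89393612, minus strand: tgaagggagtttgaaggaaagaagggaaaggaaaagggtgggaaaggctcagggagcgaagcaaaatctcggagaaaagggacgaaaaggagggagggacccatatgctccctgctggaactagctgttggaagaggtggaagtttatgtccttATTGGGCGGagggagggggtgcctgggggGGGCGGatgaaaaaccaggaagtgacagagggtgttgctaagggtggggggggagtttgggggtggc

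Zbtb5 H3K4me1 site, chr4:44970706-44971005, plus strand: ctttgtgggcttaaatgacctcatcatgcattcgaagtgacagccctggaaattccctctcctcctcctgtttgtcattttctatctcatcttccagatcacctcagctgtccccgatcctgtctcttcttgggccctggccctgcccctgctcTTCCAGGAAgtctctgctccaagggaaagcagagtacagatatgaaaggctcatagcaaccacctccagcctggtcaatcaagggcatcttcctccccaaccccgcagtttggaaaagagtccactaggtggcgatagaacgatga

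These stretches differed in base composition. GC content was 73% in the Zbtb25 to Zbtb1 interval with 25 CpG dinucleotides. The Zbtb7b promoter had a GC content of 56% and 5 CpG. H3K4me3 peaks covered all 250 bases of the Zbtb7b promoter in each of the 3 libraries. Peaks of either mark covered 0 bases of the Zbtb25 to Zbtb1 interval in all 6 libraries. The Zbtb5 site lay inside H3K4me3 peaks over all 300 bases in 3 of 3 libraries and inside H3K4me1 peaks over 300, 240 and 238 bases in replicates 1, 2 and 3. None of these stretches holds bases of an annotated UTR.

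Promoter-proximal H3K4me3 was present in 3 of 3 libraries at 38 of 39 members (97.4%), against 56.1% of all protein-coding genes. In at least 1 library it was present at the same 38 members and at 65.5% of all genes. The exception was Zbtb16. Because a gene needs such a peak before width can be read, the calls of wide domains are also given among the 12273 genes that have it. The H3K4me3 lists held 46707, 41936 and 42862 peaks in replicates 1, 2 and 3, and total read depth is unknown. Widths at the members were near those of other genes with a peak. Median width of the widest promoter-proximal peak was 2070, 1793 and 1828 bp in H3K4me3 replicates 1, 2 and 3 over the members, and 1950, 1724 and 1745 bp over all genes with a peak in that library. Fold enrichment, the ratio of fragment pileup to local background, was likewise near that of other genes, with medians of the strongest promoter-proximal peak of 7.10, 6.19 and 6.01 for members and 6.55, 6.02 and 5.99 for all genes with a peak.

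**Figure D1:**
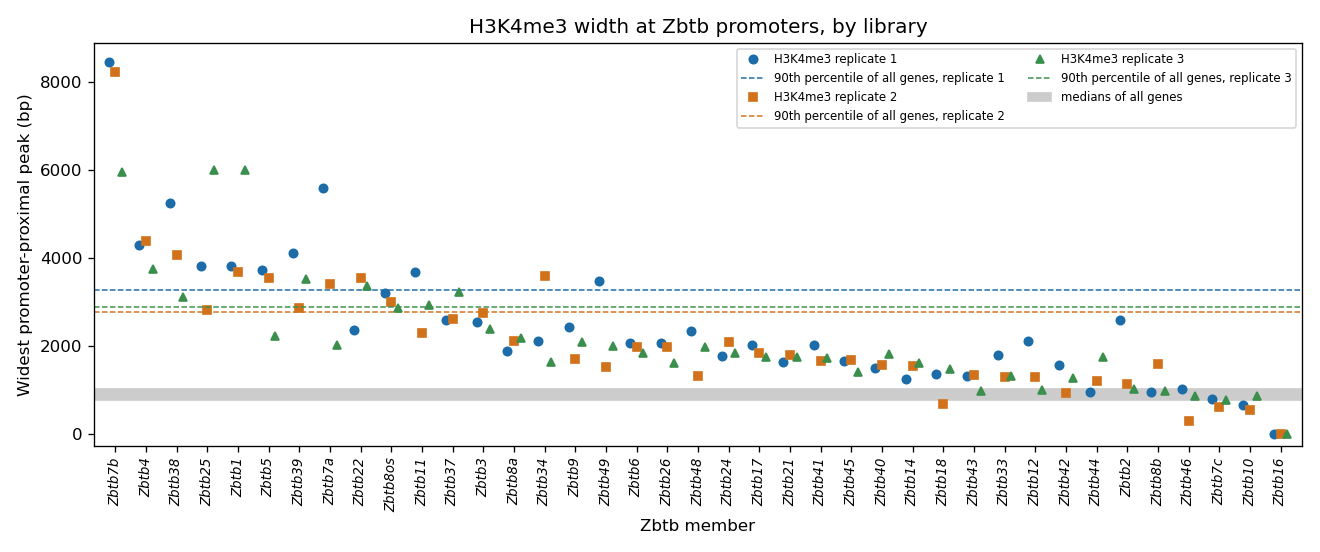
Width in bp of the widest promoter-proximal H3K4me3 peak (y axis) for each of the 39 members (x axis, ordered by the median library), with 1 point per library. Dashed lines give the 90th percentile of all protein-coding genes in each library (3285, 2785 and 2882 bp) and the grey band spans the library medians of all genes, those without a peak counted as 0. Zbtb7b stands highest at 8460, 8221 and 5945 bp, and Zbtb16 is at 0 in every library.

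A domain was called wide when the widest promoter-proximal peak reached the 90th percentile of all protein-coding genes in each of the 3 libraries. This held for 6 of 39 members (15.4%), Zbtb7b, Zbtb4, Zbtb38, Zbtb1, Zbtb25 and Zbtb39, against 5.75% of all genes. Among genes with promoter-proximal H3K4me3 in 3 of 3 libraries, it held for 6 of 38 members (15.8%) and for 10.3% of all, so the distance from the background narrowed once the presence of a peak was matched. A further 4 members passed in 2 libraries, 4 in 1 library and 25 in none. The members just inside the threshold were Zbtb25, whose lowest library stood at 1.01 times the 90th percentile, and Zbtb39 at 1.03 times. Just outside were Zbtb8os at 0.977 and Zbtb11 at 0.826 times, with widest peaks of 3682, 2300 and 2930 bp at Zbtb11. The count is therefore sensitive to the percentile, and with the 95th percentile Zbtb7b alone was left, against 2.72% of all genes. It also depends on which peaks are kept. Zbtb7b and Zbtb4 lost the call when peaks needed a −log10 q-value of at least 5, and Zbtb7b, Zbtb4, Zbtb1 and Zbtb25 lost it with the 10000 best peaks of each library, where Zbtb7b, Zbtb1 and Zbtb25 no longer had promoter-proximal H3K4me3 in 3 of 3 libraries.

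Zbtb7b encodes ThPOK, the factor that commits thymocytes to the CD4 helper lineage. Its widest promoter-proximal H3K4me3 peak measured 8460, 8221 and 5945 bp in replicates 1, 2 and 3, a mean of 7542 ± 1388 bp (SD, n = 3). In its lowest library it stood at 2.06 times the threshold. In replicate 3 the same stretch held a peak of 5945 bp and another of 909 bp. Gene Zbtb7b (ENSMUSG00000028042.15) lies at chr3:89377644-89394776 on the minus strand, and the peak of replicate 1 ran over chr3:89388762-89397221, across the 5′ end of the gene. Further H3K4me3 peaks lay upstream in all 3 libraries, among them one 17575, 17616 and 17413 bp from the nearest TSS in replicates 1, 2 and 3, with a fold enrichment of 10.2 in replicate 1 and 9.47 in replicate 3. By contrast, H3K4me1 was found within 5 kb in replicate 3 alone, as 1 peak of 186 bp.

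Zbtb1, which is needed for the development of lymphoid cells, and Zbtb25 start from opposite strands on chromosome 12, with their closest TSSs 664 bp apart. They shared 12, 11 and 8 H3K4me3 peaks and 8, 6 and 3 H3K4me1 peaks within 50 kb in replicates 1, 2 and 3, so their calls count the same peaks and are not separate observations. The widest promoter-proximal H3K4me3 peak of Zbtb1 measured 3813, 3678 and 6012 bp, a mean of 4501 ± 1310 bp (SD, n = 3). That of Zbtb25 measured 3813, 2816 and 6012 bp, a mean of 4214 ± 1635 bp (SD, n = 3). In replicate 3 the 6012 bp peak, chr12:76371325-76377336, lay inside the Zbtb1 gene and served both members. The Zbtb25 peaks of replicate 1 and 2 sat on the Zbtb25 side, at chr12:76366039-76369851 and chr12:76366290-76369105.

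The TSS of Zbtb1 itself was covered by no H3K4me3 peak in any library. It lay in a gap between flanking peaks of 704, 2224 and 1926 bp in replicates 1, 2 and 3, and the interval printed above falls in that gap. A gap of this kind, with no TSS of the gene covered and H3K4me3 peaks on both sides within 5 kb, was seen at 6, 8 and 7 members in the 3 libraries (15.4%, 20.5% and 17.9%), against 5.27%, 6.56% and 6.03% of all genes. In all 3 libraries it was seen at Zbtb1, Zbtb2 and Zbtb44, 7.69% of members against 2.38% of all genes. A gap needs promoter-proximal H3K4me3, which 97.4% of members and 56.1% of all genes had in every library. These shares are therefore not matched for presence of the mark, and a matched share of gaps was not computed. Zbtb2 had gaps of 1608, 1681 and 1636 bp and Zbtb44 gaps of 763, 811 and 888 bp. The gaps at Zbtb2 and Zbtb44 were thus nearly the same length in each library, whereas that of Zbtb1 was shortest in replicate 1. An H3K4me3 peak covered a TSS in 3 of 3 libraries at 24 members (61.5%), against 38.4% of all genes. Among genes with promoter-proximal H3K4me3 in every library the shares were 63.2% of members and 68.5% of all.

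Zbtb38 and Zbtb4 encode factors that bind methylated CpG, as does Zbtb33, which encodes Kaiso. By the mean over libraries Zbtb38 had the longest covered promoter of the family, with 11148, 8696 and 7909 bp of H3K4me3 within 5 kb of its TSSs in replicates 1, 2 and 3 and a widest promoter-proximal peak of 5254, 4069 and 3119 bp. In replicate 2 the covered length of Zbtb7b, 8779 bp, was longer. The 2 TSSs of Zbtb38, at positions 96731675 and 96752831, are far enough apart to have separate 5 kb windows. More sequence was therefore counted than at a member with 1 TSS, and the ranking was not corrected for this. Zbtb38 lies at chr9:96682770-96752831 on the minus strand. A second, wider H3K4me3 domain lay in its introns, with peaks of 9565 bp in replicate 1 (chr9:96712373-96721937) and 8861 bp in replicate 3 (chr9:96712810-96721670), 9738 and 10005 bp from the nearest TSS, and in replicate 2 this stretch was split into narrower peaks. Zbtb4 had widest peaks of 4294, 4384 and 3750 bp, a mean of 4143 ± 343 bp (SD, n = 3), the least variable of the 6 wide domains. The widest peaks of Zbtb33 measured 1811, 1310 and 1317 bp and stayed below the threshold in all libraries.

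Zbtb39 had widest peaks of 4110, 2874 and 3529 bp, a mean of 3504 ± 618 bp (SD, n = 3). Its domain lay mostly upstream of the single TSS. It began at positions -3223, -3110 and -2481 relative to the TSS in replicates 1, 2 and 3, and ended 886 and 1047 bp downstream in replicates 1 and 3. In replicate 2 the TSS fell between a peak of 2874 bp and one of 352 bp. Zbtb39 had 1, 0 and 0 H3K4me1 peaks within 50 kb, which is also the median of all genes in each library.

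**Figure D2:**
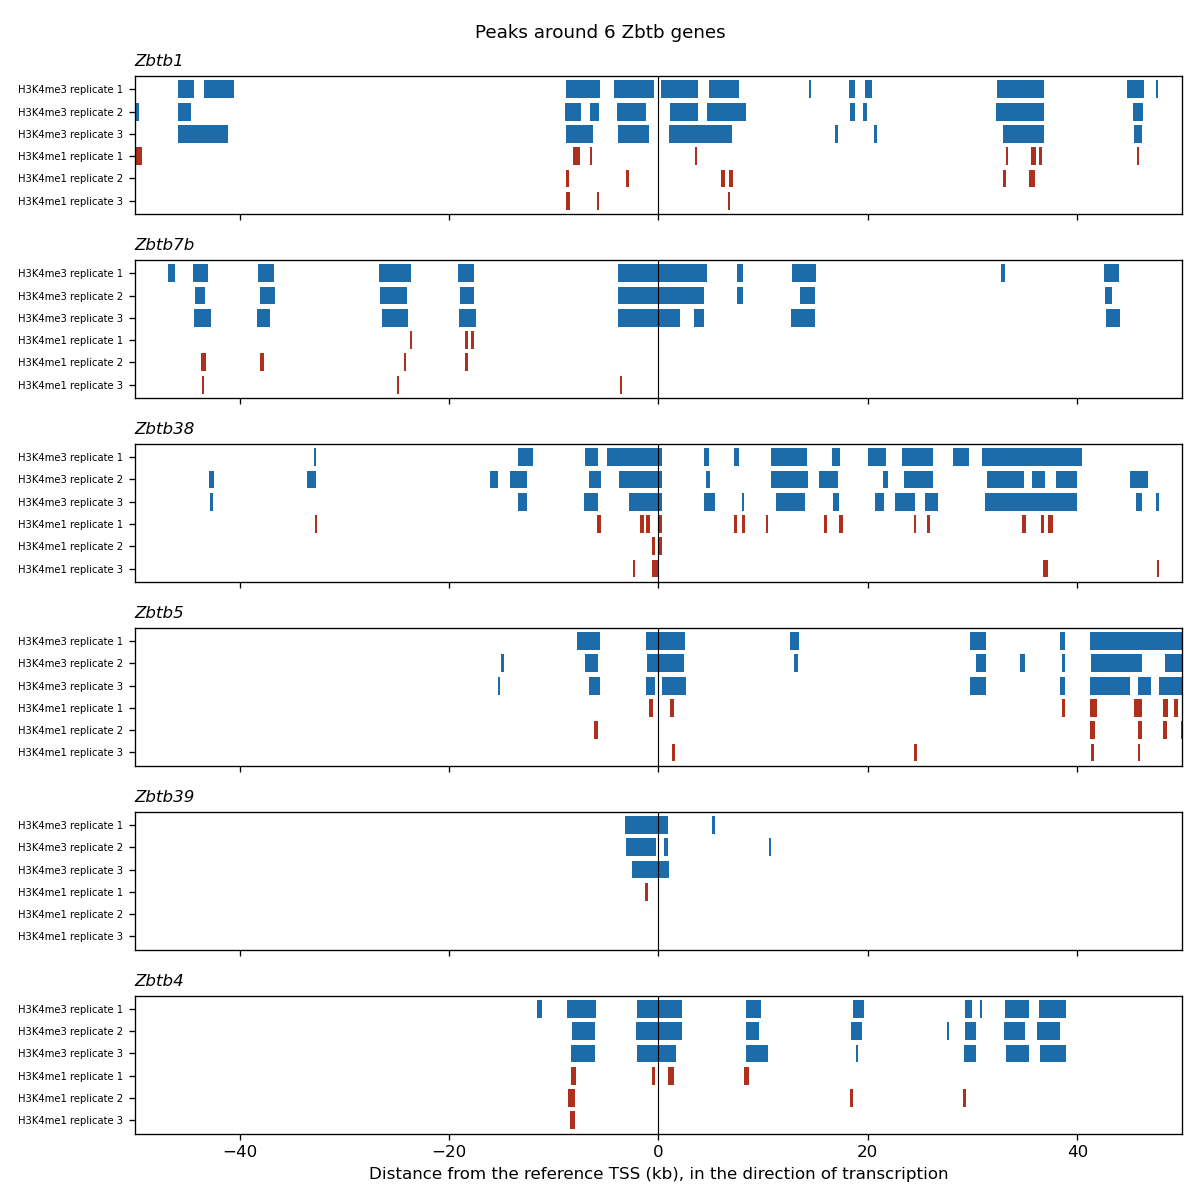
Peaks within 50 kb of a reference TSS (x axis, kb, in the direction of transcription) at 6 members, with 1 row per library. The reference is the most upstream protein-coding TSS of the member, which at Zbtb7b lies inside the annotated gene. Blue bars are H3K4me3 peaks and red bars H3K4me1 peaks, to scale. H3K4me3 covers the reference TSS of Zbtb7b in 3 of 3 libraries and leaves that of Zbtb1 open in 3 of 3, and Zbtb39 has 1 H3K4me1 peak in all.

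The other factors with roles in immune cells had narrower or less even domains. Zbtb7a encodes LRF, a regulator of B versus T lineage choice and of erythroid cells, and its widest peak measured 5602, 3415 and 2022 bp, above the threshold in replicates 1 and 2 alone. Zbtb17 encodes MIZ-1, a partner of MYC, and had peaks of 2036, 1838 and 1750 bp. For Zbtb24, mutated in an immunodeficiency with loss of centromeric DNA methylation, the values were 1778, 2090 and 1856 bp. Zbtb46, a marker of classical dendritic cells, had 1038, 315 and 866 bp and no peak over a TSS in any library. Zbtb17 and Zbtb24 varied little and lay near the median of genes with a peak, while Zbtb46 was far narrower in replicate 2 than in the others.

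Zbtb16 encodes PLZF, the factor of innate-like T cells. It was the single member with no H3K4me3 peak within 50 kb of a TSS in any of the 3 libraries, a state shared by 13.9% of all genes. Of H3K4me1 it had 1 peak, in replicate 3, of 224 bp and 47701 bp from the nearest TSS. The nearest TSS of another protein-coding gene is that of Htr3a, 74799 bp away.

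Markers of the sorted cells bear on which cells these peaks come from. Promoter-proximal H3K4me3 was present in 3 of 3 libraries at 8 of 8 GC B cell genes, 4 of 4 plasma cell genes, 2 of 5 myeloid genes (Cebpa and Itgam) and 0 of 5 T cell genes that were found of 6 listed (Cd3e, Cd4, Cd8a, Cd8b1 and Cd28). The part of other cells in the Zbtb7b domain was not tested beyond this count of T cell genes.

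The telomere factors differed. Zbtb48, which encodes the telomere protein TZAP, had widest promoter-proximal H3K4me3 peaks of 2355, 1334 and 1977 bp and 7, 7 and 6 H3K4me3 peaks within 50 kb. Zbtb10, with 3, 1 and 2 H3K4me3 peaks within 50 kb, was sparsely marked. This gene, whose protein binds variant telomere repeats, had 668, 556 and 867 bp. Zbtb10 was also one of the members without any H3K4me1 peak within 50 kb in any library, together with Zbtb40. This makes 2 members (5.13%) against 34.4% of all genes, shares not matched for promoter-proximal H3K4me3. The neural and muscle factors Zbtb18, Zbtb42 and Zbtb45 had promoter H3K4me3 in every library and no wide domain. Zbtb18, a repressor in developing neurons, had widest peaks of 1370, 697 and 1476 bp, Zbtb42 of 1569, 935 and 1291 bp, and Zbtb45 of 1659, 1690 and 1424 bp. By the mean over libraries, the narrowest promoter peaks among members with the mark were those of Zbtb10 and then of Zbtb7c, at 796, 617 and 777 bp. The members not assigned to a role or a neighbour here, Zbtb2, Zbtb3, Zbtb14, Zbtb21, Zbtb37, Zbtb40, Zbtb41, Zbtb44 and Zbtb49, had widest peaks between 974 and 3478 bp, and of these Zbtb37 and Zbtb49 passed the width threshold in 1 library each.

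Fewer H3K4me1 than H3K4me3 peaks were called around the same genes. Median summit height of H3K4me1 peaks near members was 6 fragments in each of the 3 libraries, recovered from the fold enrichment and p-value of each peak (range 4 to 17, 4 to 13 and 4 to 12 fragments), so absence of a peak means that none was detectable at this depth. Replicate 1 held 24136 H3K4me1 peaks over the genome, replicate 2 13923 and replicate 3 11922. The number of H3K4me1 peaks near members followed the same order. A promoter-proximal peak was carried by 22, 13 and 12 members (56.4%, 33.3% and 30.8%), against 26.7%, 16.8% and 15.6% of all genes. These shares are not matched for promoter-proximal H3K4me3, which 97.4% of members and 56.1% of all genes had in every library. Matched shares by library were not computed.

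Promoter-proximal H3K4me1 in 3 of 3 libraries was found at 4 members (10.3%), Zbtb2, Zbtb6, Zbtb25 and Zbtb38, against 6.17% of all genes. Among genes with promoter-proximal H3K4me3 in every library the shares were 10.5% of members and 11% of all. By library, 12 members had promoter-proximal H3K4me1 in 2 libraries, 11 in 1 and 12 in none (30.8%, against 64.3% of all genes). The comparison of these last shares was not matched for promoter-proximal H3K4me3. No member had an H3K4me1 peak over a TSS in 3 of 3 libraries, a state seen at 0.0274% of all genes. Summits lay on both sides of the TSS, 20 upstream and 18 downstream in replicate 1, 8 and 9 in replicate 2, and 6 and 8 in replicate 3, at median distances of 1097, 1342 and 2284 bp.

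An H3K4me1 array was called when the number of peaks within 50 kb reached the 90th percentile of all genes, which was 6, 3 and 3 peaks in replicates 1, 2 and 3, in each library. Such arrays were found at 3 of 39 members (7.69%), Zbtb1, Zbtb25 and Zbtb5, against 5.65% of all genes. Among genes with promoter-proximal H3K4me3 in every library they were found at 3 of 38 members (7.89%) and at 9.44% of all. With Zbtb1 and Zbtb25 sharing their peaks, these calls describe 2 loci. Windows were of like length, with a median of 100031 bp for members and 100005 bp for all genes. Over the whole family the median number of H3K4me1 peaks within 50 kb was 3, 2 and 1, and over all genes 1, 0 and 0. These medians too were not matched for promoter-proximal H3K4me3.

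**Figure D3:**
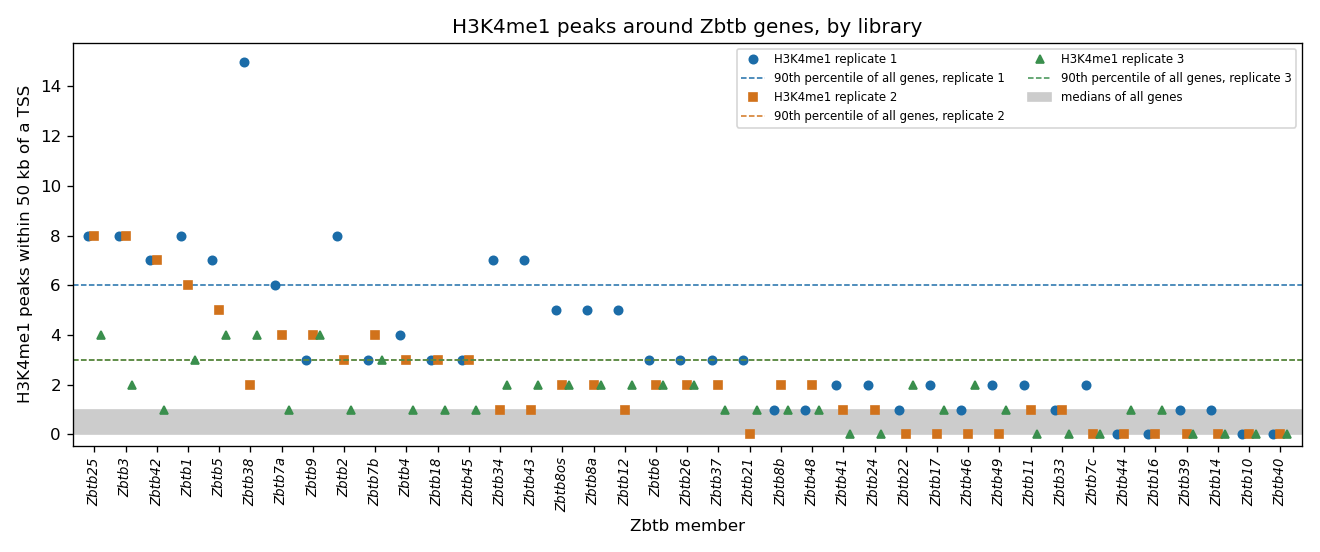
Number of H3K4me1 peaks within 50 kb of a TSS (y axis) for each member (x axis, ordered by the median library), with 1 point per library. Dashed lines give the 90th percentile of all protein-coding genes (6 in replicate 1, and 3 in replicates 2 and 3, where the lines coincide) and the grey band spans the medians of all genes. Zbtb25, Zbtb1 and Zbtb5 reach the line of every library, and Zbtb38 has 15 peaks in replicate 1 but 2 and 4 in the others.

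Zbtb25 had 8, 8 and 4 H3K4me1 peaks, Zbtb1 8, 6 and 3, and Zbtb5 7, 5 and 4 in replicates 1, 2 and 3. Zbtb1 sat on the threshold in its lowest library and Zbtb5 at 1.17 times it. The members just outside were tied at 0.667 times the threshold, namely Zbtb38, Zbtb3, Zbtb8a and Zbtb8os. Zbtb38 had 15, 2 and 4 peaks and Zbtb3 8, 8 and 2. Zbtb38 thus had the most H3K4me1 of the family in replicate 1 and missed the threshold in replicate 2. Both Zbtb8a and Zbtb8os had 5, 2 and 2 peaks, which they shared.

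The peaks that make up an array mostly did not recur in place. Near members there were 193 distinct H3K4me1 sites, of which 158 were found in 1 library, 28 in 2 and 7 in 3 (3.63%, against 4.69% of all H3K4me1 sites). The 274 H3K4me3 sites near members included 172 found in 3 libraries (62.8%, against 41.6% of all H3K4me3 sites). For neither mark was a share computed for sites near genes with promoter-proximal H3K4me3. The array of Zbtb1 comprised 13 sites and that of Zbtb25 16 sites, each with 4 found in 2 libraries and 0 found in 3. A high number of peaks in every library was thus met at these loci largely by different sites. By contrast, the array of Zbtb5 comprised 10 sites, 2 of them found in all 3 libraries.

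Zbtb5, described as a repressor of the cell cycle inhibitor gene Cdkn1a, lies at chr4:44991242-45012412 on the minus strand. Its recurrent H3K4me1 sites lay downstream, chr4:44970488-44971178 at 41216 bp and chr4:44966217-44966977 at 45417 bp from the nearest TSS. The former overlaps an annotated exon of Gm12493 and Gm12679 and reached a fold enrichment of 9.50, and the latter is intergenic. Part of the former site is the sequence printed above, centred on the summit of replicate 3, with 1 match to TTCNNNGAA. These sites overlapped an H3K4me3 domain that was wider than that of the Zbtb5 promoter, a peak of 10277 bp in replicate 1 (chr4:44960889-44971165), with peaks of 4839 and 3795 bp at its near end in replicates 2 and 3. At its promoter Zbtb5 had 3723, 3559 and 2231 bp and missed the call of a wide domain in replicate 3, where a gap of 705 bp split the signal.

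The other sites found in 3 of 3 H3K4me1 libraries were spread over the family. For Zbtb38 the site was at the TSS, chr9:96752529-96753488. For Zbtb4 it lay in an intron of Polr2a (chr11:69757271-69758024), for Zbtb48 in an intron of Nol9 (chr4:152041653-152042669), and for Zbtb9 in an intron of Zbtb9 and Ggnbp1 (chr17:26979402-26979894). Zbtb8a and Zbtb8os shared a site in an exon at chr4:129354182-129354612. Hosts such as Polr2a and Nol9 show that a site counted for a member can lie in another gene, and assignment here is by distance alone. All 7 recurrent sites overlapped H3K4me3 regions found in at least 2 libraries, as did 156 of the 193 sites (80.8%). In H3K4me1 replicates 1, 2 and 3, 79.2%, 78.6% and 78.0% of peaks near members overlapped an H3K4me3 peak, as the mean over the 3 H3K4me3 libraries, against 70.8%, 71.9% and 75.7% of all H3K4me1 peaks. Introns held 119 of the sites (61.7%), intergenic sequence 46 (23.8%) and exons 28 (14.5%).

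Outlying peaks too were called at more members for H3K4me3 than for H3K4me1, in lists with the layouts of broad and narrow calls. Outlying H3K4me3 was present in 3 of 3 libraries at 36 members (92.3%), against 64.9% of all genes. The members without it were Zbtb10, Zbtb16 and Zbtb39. For outlying H3K4me3 a share matched for promoter-proximal H3K4me3 was not computed. Outlying H3K4me1 in 3 of 3 libraries was found at 19 members (48.7%), against 25.3% of all genes, and among genes with promoter-proximal H3K4me3 in every library at 50% of members and 38.2% of all. Many of these peaks lay near TSSs of neighbouring genes. In the H3K4me1 libraries 46.7%, 50% and 42.9% of outlying peaks of members lay more than 5 kb from every protein-coding TSS, against 59.5%, 61.8% and 60.0% for all genes. The widest outlying H3K4me3 peaks of Zbtb24 measured 7286, 6021 and 5298 bp (chr10:41470943-41478228 in replicate 1), and they covered the TSS of its neighbour Mical1, 25879 bp away. Those of Zbtb3 measured 4984, 6450 and 4359 bp and likewise lay within 5 kb of a TSS of another protein-coding gene. The wide outlying peaks of Zbtb5 and Zbtb38 lay more than 5 kb from every protein-coding TSS.

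Neighbouring members need to be read together. TSSs of Zbtb6 and Zbtb26 lie 50 bp apart, and those genes shared 6, 4 and 5 H3K4me3 peaks and 3, 2 and 2 H3K4me1 peaks. Their widest promoter peak was the same in replicates 1 and 2, at 2070 and 1996 bp, and in replicate 3 measured 1853 bp for Zbtb6 and 1622 bp for Zbtb26. Zbtb34 and Zbtb43 lie 31029 bp apart and shared 7, 1 and 2 H3K4me1 peaks, while their promoters carried separate H3K4me3 peaks, of 2123, 3587 and 1639 bp at Zbtb34 and 1332, 1339 and 991 bp at Zbtb43. Zbtb8a had 1886, 2130 and 2200 bp, Zbtb8b 958, 1594 and 993 bp, and Zbtb8os 3210, 3011 and 2875 bp. The Zbtb8os promoter is shared with Rbbp4, which starts 325 bp away on the opposite strand. On chromosome 17, Zbtb22 had 2370, 3562 and 3377 bp and passed the width threshold in replicates 2 and 3. The passing peaks were different ones, 2218 bp downstream of its TSS in replicate 2 and 4777 bp upstream in replicate 3. Neither covered the TSS. Zbtb9 had 2437, 1714 and 2099 bp, and Zbtb12 had 2111, 1302 and 1007 bp. In all, 7 members had a TSS of another protein-coding gene within 1 kb, 5 of them on the opposite strand.

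To set the marks against each other at each member, the length covered by peaks within 5 kb of TSSs was compared between the 3 H3K4me3 and the 3 H3K4me1 libraries. At 38 of 39 members the lowest H3K4me3 library was above the highest H3K4me1 library, as it was at 55.7% of all genes. The reverse order was found at 0 members. Those 38 are the members with promoter-proximal H3K4me3 in every library. Of the 12273 genes with that mark, 12180 met the rule, so the count largely restates presence of the mark. The exact permutation test over the 20 assignments of 6 libraries gave p = 0.1 at each of those 38, the smallest this design allows, so none can pass 0.05. Zbtb38 had the longest mean H3K4me1 coverage of the family, with 1900, 591 and 939 bp beside the H3K4me3 lengths given above. These lengths too were counted over its separate TSS windows. The H3K4me3 lists have the layout of broad calls and the H3K4me1 lists that of narrow calls. Mark and calling mode therefore cannot be told apart in these lengths, or in the numbers and recurrence of peaks compared between marks.

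**Figure D4:**
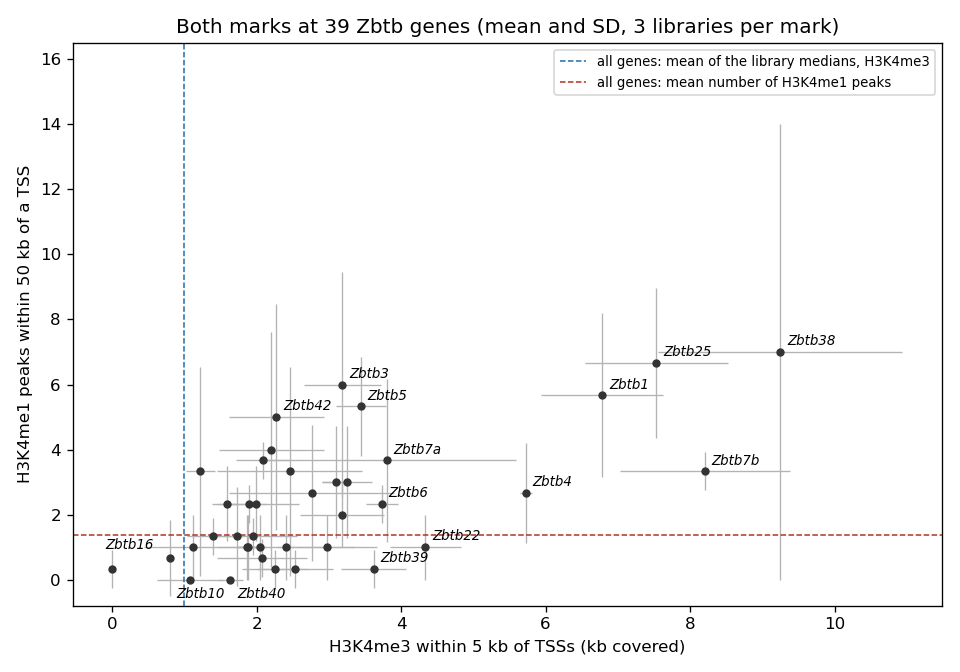
H3K4me3 length within 5 kb of TSSs (x axis, kb) against the number of H3K4me1 peaks within 50 kb (y axis) for the 39 members, as mean with SD over 3 libraries of each mark. Dashed lines give the mean over libraries of the median H3K4me3 length and of the mean H3K4me1 number of all protein-coding genes. Zbtb25 and Zbtb1 stand high on both axes, Zbtb7b is high in H3K4me3 with 3, 4 and 3 H3K4me1 peaks, and the SD of Zbtb38 in H3K4me1 is as large as its mean of 7.

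A wide domain and an H3K4me1 array coincided at 2 members (5.13%), Zbtb1 and Zbtb25, against 2.03% of all genes. These are the divergent pair with shared peaks, so the coincidence rests on 1 locus.

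Related genes outside the name rule show where the family stands. Of 8 BTB zinc finger genes under other symbols (Bcl6, Bcl6b, Hic1, Hic2, Patz1, Gzf1, Mynn and Zfp131), 8 had promoter-proximal H3K4me3 in 3 of 3 libraries, 2 had a wide domain (Bcl6 and Mynn) and 1 an array (Bcl6). The Bcl6 domain measured 9477, 9005 and 9541 bp, wider than that of Zbtb7b in each library. Of 11 genes for partners of BTB domains, 11 had promoter-proximal H3K4me3, 11 had outlying H3K4me1, 3 had a wide domain (Tbl1xr1, Sin3a and Bcor) and 1 had an array (Tbl1xr1), each in 3 of 3 libraries. Over all genes the shares were 56.1% for promoter-proximal H3K4me3, 25.3% for outlying H3K4me1, 5.75% for a wide domain and 5.65% for an array. Within the family, wide domains were found at 3 of 8 lymphocyte and immune factors and 2 of 3 readers of methylated DNA. They were found at 0 of 2 telomere factors and 0 of 3 neural and muscle factors. Among all genes with promoter-proximal H3K4me3 in 3 of 3 libraries the share was 10.3%. The immune factors with a wide domain include Zbtb1 and Zbtb25, whose calls are not separate observations. Groups of this size are described here and were not tested.

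Promoter sequence was examined over 46 RefSeq promoters of 34 members, each 300 bases around a start. Zbtb7c, Zbtb10, Zbtb16, Zbtb40 and Zbtb48 had no promoter in this set. They include the member without H3K4me3, those with the narrowest promoter peaks and those without any H3K4me1 peak. The shares below therefore leave out some of the least marked members. Median GC content was 65.7% and the median ratio of observed to expected CpG 0.840. Over 12236 promoters of protein-coding genes with promoter-proximal H3K4me3 in 3 of 3 libraries the medians were 60.7% and 0.750, and over all 32851 promoters 52.7% and 0.384. The GC box GGGCGG was present, on either strand, in 71.7% of member promoters, 61.9% of those of marked genes and 35.7% of all. CCAAT was present in 28.3% of member promoters, 38.1% of those of marked genes and 37.4% of all. The cyclic AMP response element TGACGTCA, at Zbtb11 and Zbtb21, was present in 4.35%, 3.20% and 1.79%. The motif of Kaiso, the PU.1 motif GAGGAAGT and TTCNNNGAA were in 0% of member promoters, in 1.01%, 3.08% and 6.86% of those of marked genes, and in 0.466%, 3.20% and 8.30% of all. TTCNNNGAA, which is in the Zbtb5 site, was found in 8.71% of windows of 300 bases around the 11922 summits of H3K4me1 replicate 3. Matches are a description of letters, and nothing was measured here on the binding of these factors.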

How the data were processed

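Mint-ChIP peak lists of 3 H3K4me3 and 3 H3K4me1 libraries of wild-type mouse GC B cells were used, grouped by mark from the sample titles. Peak calling by the authors was done per library, without pooling. The deposited lists have the layout of MACS2, broad for H3K4me3 and narrow for H3K4me1, while the submitters' processing notes name BWA, Picard, HOMER, Genrich and mm10; the caller, its settings, its control and the versions are not given in the sources used here. Each deposited list gives a fold enrichment (a ratio of pileup to background), a −log10 p-value, a −log10 q-value and a score, the last of which was not used. Deposited −log10 q-values reached down to 1.31, 1.31 and 1.32 for H3K4me1 and 1.03, 1.14 and 1.02 for H3K4me3. One protocol label names an H3K27Ac antibody, whereas the titles, the antibody labels and the methods of the study name the marks used here.

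TSSs of protein-coding transcripts (41451 TSSs of 21864 genes) came from GENCODE release M21 for GRCm38, the build of the files. Distances ran from the nearest peak edge. Genes without a peak counted as 0 in percentiles. Every rule was also applied to all protein-coding genes, and steps were tested on simulated data. Sequences came from RefSeq promoters and GRCm38, and 200 of 200 promoters checked were identical to the genome. Read depth is unknown. Summit heights in fragments were recovered from fold enrichment and p-value, and were whole within 0.0005 for 100% of H3K4me1 peaks. Named were members with a wide domain, an array or no H3K4me3, those nearest each threshold, and lists by role and neighbourhood. Members and lists were chosen with earlier results of these data known.

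Alternatives were a −log10 q-value limit of 5, the 10000 best peaks, merging within 1 kb, other distances, percentiles, TSSs and numbers of libraries, and leaving out each library. Python 3.11.15 was used with NumPy 2.4.6, pandas 2.3.3, SciPy 1.17.1 and Matplotlib 3.10.9. Same-numbered libraries of the marks were not taken as pairs, since the labels tie them to no shared animal.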

Additional observations from a re-analysis of the deposited data

How the results depend on the processing

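Of 93 alternative values over 8 counts of members, 68 stayed within 1.5 times the main count. Percentages in brackets are the shares of all protein-coding genes at the same setting. Promoter-proximal H3K4me3 (38 members) fell to 16 with the 10000 best peaks (23.8%) and to 24 when a peak had to cover a TSS (38.4%). Promoter-proximal H3K4me1 (4) became 1 at a −log10 q-value of at least 5 (0.503%) and 1 within 1 kb (1.49%). It became 0 over a TSS (0.0274%) and 16 in 2 of 3 libraries (17.2%). Outlying H3K4me1 (19) became 1 at the q-value limit (3.82%) and 12 within 25 kb (12.1%). It became 7 when peaks near any protein-coding TSS were left out (14.8%). Wide H3K4me3 domains (6) became 3 with the 10000 best peaks (4.85%) and 10 in 2 of 3 libraries (9.24%). At the 95th percentile 1 was left (2.72%). In an alternative chosen after seeing the data, the percentile was taken among genes with a promoter-proximal peak, which left 2 (3.42%). H3K4me1 arrays (3) became 0 at the q-value limit (0.247%), 10 in 2 of 3 libraries (11.5%) and 1 at the 95th percentile (2.41%). Members with both (2) became 0 at the q-value limit (0.119%), 0 with the 10000 best peaks (1.12%) and 0 at the 95th percentile (0.823%). In 2 of 3 libraries they became 6 (4.4%). Outlying H3K4me3 (36) stayed within 1.5 times. These settings use fewer or more peaks, genes or libraries by construction.

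Leaving out each library in turn, with the rest all required, gave 38 to 38 members for promoter-proximal H3K4me3 (56.7% to 57.9% of all genes). Promoter-proximal H3K4me1 gave 5 to 11 (7.42% to 11.4%). Outlying H3K4me3 gave 36 to 37 (66.0% to 67.2%) and outlying H3K4me1 19 to 24 (27.0% to 34.3%). Wide domains gave 7 to 8 (6.8% to 7.05%), arrays 4 to 7 (7.1% to 8.17%) and both 2 to 3 (2.23% to 2.43%). Promoter-proximal H3K4me1 stood at 8 without H3K4me1 replicate 2 (10.8%) and 11 without replicate 3 (11.4%). Arrays stood at 5 without H3K4me1 replicate 1 (8.17%), which adds Zbtb7b and Zbtb9. They stood at 7 without replicate 3 (7.48%), which adds Zbtb2, Zbtb3, Zbtb42 and Zbtb7a. The order of the marks in covered promoter length held at 16 members with the 10000 best peaks (23.7%, in either order).

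With a replicate block over the 3 same-numbered pairs, H3K4me3 was longer in each pair at 38 members, the same count as without the block, and the exact sign-flip p cannot go below 0.25. For covered promoter length, correlations of deviations between same-numbered libraries were 0.0272, 0.00834 and 0.0116. Between differently numbered libraries they ran from -0.0166 to 0.00572. For the number of peaks within 50 kb the same-numbered values were 0.00308, 0.0113 and -0.0156. The differently numbered ones ran from -0.0258 to 0.0230. All are small, and these values do not settle whether libraries were paired. Leaving out Zbtb8os moved no count by more than 1 member. Depth limits the H3K4me1 calls, which rest on summits of a few fragments.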

Other observations

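The members left out by rule, Zbtb20 and Zbtb32, also had peaks of both marks. Zbtb20, a factor of B cells and plasma cells, had widest promoter-proximal H3K4me3 peaks of 10859, 9970 and 11058 bp in replicates 1, 2 and 3, and 19, 13 and 8 H3K4me1 peaks within 50 kb, past both thresholds in every library. Zbtb32, an inhibitor of plasma cell recall responses, had 3452, 2200 and 3361 bp and 5, 3 and 5 H3K4me1 peaks. It missed the width threshold in replicate 2 and the array threshold in replicate 1.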
